A study of Homo sapiens with 12 samples.

Results

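HK-2 cells held with Ota for 72 h were compared with HK-2 cells held with Ota for 24 h. The members were taken from the sample labels: the 3 arrays of low-dose Ota at 72 h and the 3 arrays of low-dose Ota at 24 h, 6 of the 12 arrays analysed. The other 6 arrays are control cells given the vehicle, 3 at 24 h and 3 at 72 h, and are used here to show which changes also took place without Ota. HK-2 is a cell line derived from the epithelium of the human proximal tubule and immortalised with papillomavirus oncogenes. Every group was seeded on plates the day before exposure, treated near confluency, and grown in a serum-free medium with EGF, hydrocortisone, insulin, transferrin and selenite. Expression was read as log2 values from Affymetrix arrays. Replicates are described as biological, but nothing states that each was a culture of its own, and every p-value below therefore reflects only how far these arrays scatter, which may be technical. The labels give neither the dose nor the vehicle, and write Ota without spelling it out; OTA is the usual abbreviation of ochratoxin A, a mould toxin that harms the kidney.

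Several pathways recur in what follows. When misfolded protein accumulates in the endoplasmic reticulum (ER), the sensors PERK, IRE1 and ATF6 start the unfolded protein response, which raises chaperones and slows protein synthesis. PERK shares with sensors of amino acid shortage a common route, the integrated stress response, in which translation of the transcription factor ATF4 turns on genes of amino acid supply and the factor CHOP. Cells entering division first switch on replication genes through E2F factors and later mitotic genes through the DREAM and B-MYB-FOXM1 complexes, and cells at confluency or with damaged DNA shut both down.

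Over the 10699 genes tested, Pearson's r between replicates of a group was 0.986 to 0.994, and arrays of Ota cells at 24 h correlated with those at 72 h at 0.962 to 0.981. In the 6 Ota arrays the first principal component held 72.5% of the variance and separated the times. The median level of the genes tested lay between 8.16 and 8.22 on the arrays at 24 h and between 8.30 and 8.36 at 72 h, without overlap, and the excess of the 3' over the 5' probe set for actin (log2), which grows as RNA degrades, was 1.06 to 1.30 at 24 h and 1.19 to 1.33 at 72 h. Of 10 measured proximal tubule markers only PAX8, a kidney transcription factor, was above the filter, at 10.2 ± 0.12 (SD, n = 3) at 24 h and 10.1 ± 0.21 at 72 h. LRP2, CUBN, AQP1, SLC34A1, SLC5A2, SLC22A6, SLC22A8, ANPEP and GGT1 lay between 2.10 and 3.36, at the floor of the values. The epithelial markers EPCAM, KRT8, KRT18 and KRT19 were all at 10.7 or higher at both times, and CDH1 was at 7.58 and 8.09.

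In Ota cells 2378 genes were higher at 72 h than at 24 h, 22.2% of those tested, and 1069 were lower, 9.99%. These 3447 genes, 32.2% of those tested, passed an adjusted p of 0.05 in limma with Benjamini-Hochberg adjustment. At least 2-fold changes were seen for 499 of the higher and 129 of the lower genes. The arrays of the 2 times did not overlap for 5431 genes, 50.8%. The split between directions moved with the scaling: the median change over all genes was 0.081 on the log2 scale, and it became -0.053, a shift of -0.13, when each array was set to a common median. There 1666 genes were higher and 2008 lower, so that 45.3% of calls were higher instead of 69.0%; 2735 calls were shared between both scalings. A repeat of the quantile step gave 1946 and 1395, or 58.2% higher. Changes below are best read against that shift.

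Control cells changed over the same 48 h as well: 2434 genes were higher at 72 h, 22.7%, and 2529 were lower, 23.6%. The change in Ota cells differed from the change in control cells for 2278 genes, 21.3%. It was more positive in Ota cells for 1659 genes, 15.5%, and more negative for 619, 5.79%. With a common median these counts were 1164 and 1187. A difference is given below as the Ota change minus the control change, on the log2 scale; the Ota and control changes share no arrays.

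**Figure D1:**
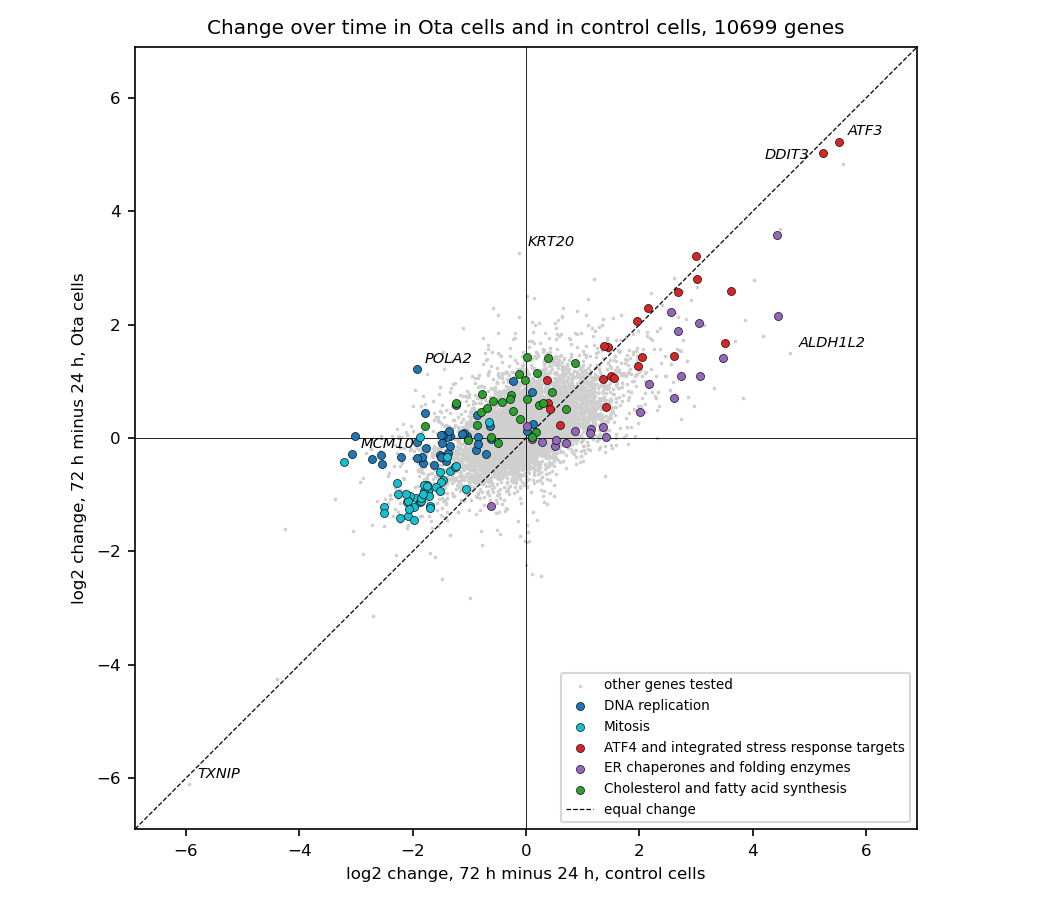
Log2 change from 24 h to 72 h in control cells (horizontal axis) and in Ota cells (vertical axis), 1 point for each of the 10699 genes, with 5 gene lists in colour and the dashed line where both changes are equal. TXNIP lies at -5.95 and -6.11, DDIT3 at 5.24 and 5.03, replication genes lie above the line near 0 for Ota cells, and KRT20 lies at -0.12 and 3.27.

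The largest rise clear of the floor was that of DDIT3, which encodes the stress transcription factor CHOP. Its log2 values were 6.84, 6.82 and 7.01 on the arrays at 24 h and 11.31, 12.14 and 12.32 at 72 h. The times stood far apart, a rise of 5.03 ± 0.21 (SE), 32.7-fold (adjusted p = 2.73e-07, limma). In control cells DDIT3 rose by 5.24, and the difference of -0.21 ± 0.30 did not pass the test (adjusted p = 0.654). INHBE, a liver and stress-induced activin subunit, went from 6.68, 6.13 and 6.12 to 10.49, 11.46 and 11.49, and SLC7A11, the cystine importer, from 6.74, 6.94 and 6.43 to 9.87, 10.76 and 10.52. Those rises were 28.6-fold and 12.8-fold. SDF2L1, an ER-resident folding factor, rose by 3.59. The rest of the 10 largest rises were KRT20, ADAMTS5, STC2, ZNF165, ERN1 and HERPUD1, between 2.67 and 3.27. When the probe sets of a gene were averaged, the rise was over 1.5 times smaller for ADAMTS5 (1.84), STC2 (1.82), ERN1 (1.02) and HERPUD1 (1.23). Averages here and below take in every probe set of a gene, also those at the floor, which make the average change smaller. In Ota cells the others of ERN1 stood at 2.55 and 2.53 at 24 h and 2.82 and 2.535 at 72 h. Another of HERPUD1 stood at 3.325 and 3.12. For ADAMTS5 another stood at 2.92 and 2.98, while the rest rose by 2.76 and 1.72. A smaller average is therefore not by itself a smaller rise.

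KRT20, a keratin of simple epithelia that is also raised in injured kidney tubules, was the one of these whose rise differed from control cells toward a larger value. Its values were 7.25, 7.43 and 8.09 at 24 h and 10.62, 10.22 and 11.74 at 72 h, a 9.66-fold rise (adjusted p = 0.000437). Control cells stood at 8.41 ± 0.47 (SD, n = 3) and 8.29 ± 0.81. The difference was 3.39 ± 0.64 (adjusted p = 0.00438).

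TXNIP fell furthest. It encodes a thioredoxin-binding arrestin that limits glucose uptake. Its values were 10.73, 10.34 and 10.62 at 24 h and 5.03, 4.13 and 4.21 at 72 h, a fall of 6.11 ± 0.22, 68.9-fold (adjusted p = 8.03e-08). In control cells TXNIP fell by 5.95. The long non-coding RNA gene LINC01963, from 8.57, 9.11 and 7.78 to 6.09, 6.37 and 5.72, fell by 2.43 in Ota cells while control cells stood at 4.43 and 4.69. S100A2, a calcium-binding protein gene, went from 11.52, 11.87 and 11.57 to 9.59, 9.58 and 9.61, a 4.17-fold fall. EPHB1, EGLN3 and MYL9 fell by 2.11, 2.05 and 2.03. With probe sets averaged the falls of EPHB1 and MYL9 were 0.88 and 1.02 in size. In control cells S100A2, EPHB1, EGLN3 and MYL9 fell by 2.29, 1.60, 2.87 and 1.69. ACADVL, an enzyme of mitochondrial fatty acid oxidation, fell by 1.89 ± 0.20, and ADM5, GCNA and PSMD6-AS2 fell by 1.82, 1.66 and 1.64. ADM5 and GCNA, at 3.75 and 5.39 in control cells at 24 h, were not called there, with changes of 0.05 and 0.03, and the differences were -1.87 and -1.69 (adjusted p = 0.000665 and 0.00172).

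Some large changes started or ended at the floor, so their folds are uncertain. ATF3 rose from 3.57, 4.19 and 3.83 to 8.23, 9.58 and 9.48, CHAC1 from 3.50, 3.43 and 3.61 to 6.31, 6.80 and 7.06, and TIMM10B from 3.97, 2.69 and 3.87 to 6.06, 6.04 and 5.79. The neuropeptide gene GAL fell from 8.22, 8.01 and 6.82 to 3.97, 3.96 and 2.39. MMP1, a collagenase, fell from 6.69, 8.76 and 5.29 to 3.71, 4.40 and 3.21, and SLC16A14 from 5.70, 6.24 and 4.64 to 2.89, 2.52 and 2.70. With the probe sets averaged, the rise of ATF3 was 3.11 instead of 5.23 and the fall of GAL 2.14 instead of 4.24. In control cells ATF3, CHAC1 and TIMM10B rose by 5.52, 3.00 and 1.10, TIMM10B from a mean of 6.30. GAL, MMP1 and SLC16A14 fell there by 4.40, 2.70 and 0.98.

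**Figure D2:**
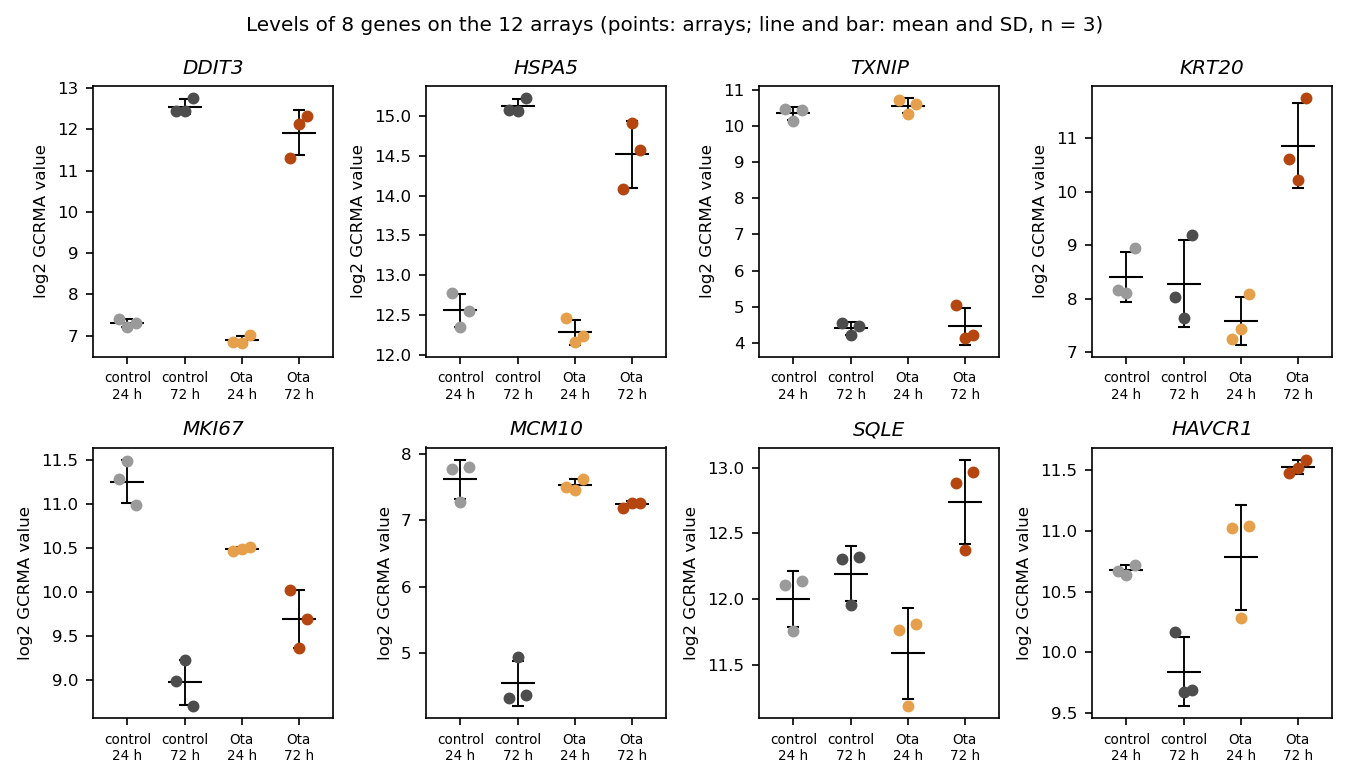
Log2 levels of 8 genes on each of the 12 arrays; points are arrays, the line and bar are the mean and SD of 3 arrays. DDIT3 and HSPA5 rose and TXNIP fell in both control and Ota cells, MCM10 fell in control cells and had means of 7.53 and 7.24 in Ota cells, and KRT20, SQLE and HAVCR1 had their highest means in Ota cells at 72 h.

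Among the lists with at least 5 genes tested, targets of ATF4 and the integrated stress response had the highest share of calls: 21 of 22 genes tested rose in Ota cells and none fell, with a median change of 1.52 against 0.081 over all genes. The higher genes made 95.5% of the list, against 22.2% of all genes. Leaving out any 1 array gave 19 to 21. TRIB3, a pseudokinase that binds AKT, went from 10.30, 10.49 and 10.40 to 12.01, 12.81 and 12.59, a 4.21-fold rise. ATF4 itself went from 11.97, 11.95 and 11.98 to 12.81, 13.29 and 13.07, a 2.13-fold rise. GDF15, a secreted stress hormone, rose 4.90-fold (2.29 ± 0.23). With its probe sets averaged the rise was 0.76, but the others lay at the floor, at 2.12 and 2.55 at 24 h. CHAC1, which degrades glutathione, rose by 3.21. Control cells rose in the same list with a median of 1.96, and 3 genes had a difference, each more negative in Ota cells. Fewer genes can be read from probe sets specific to 1 transcript by their name, and there 12 of this list were called.

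ATF4 binds with CEBP partners at elements of the form TGATGNAA, which was found in the 250 bases before the start of 3.19% of 27305 RefSeq promoters. Of 19 tested list members with a promoter sequence, 2 held it, both higher at 72 h. Those stretches of ATF3 (GRCh38.p14, chr1:212565201-212565238, plus strand) and CHAC1 (chr15:40953247-40953284, plus strand) are shown with the element in capitals, on the reverse strand for CHAC1.
ATF3: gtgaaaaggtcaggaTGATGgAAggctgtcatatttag
CHAC1: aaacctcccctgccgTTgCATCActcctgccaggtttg

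Chaperones and folding enzymes of the ER rose in part: 9 of 23 genes tested were higher and 1 was lower. These were 39.1% and 4.35%, against 22.2% and 9.99% of all genes. The median change was 0.21 in Ota cells against 1.40 in control cells. HSPA5, the main ER chaperone BiP, went from 12.46, 12.16 and 12.24 to 14.08, 14.91 and 14.57, a 4.69-fold rise (2.23 ± 0.19, adjusted p = 2.44e-05). Every array at 72 h lay above every array at 24 h, with replicate 1 the lowest at 72 h. In control cells HSPA5 rose by 2.56, a difference of -0.33 ± 0.26 that did not pass the test (adjusted p = 0.402); with its probe sets averaged the difference was -1.36 and was called (adjusted p = 0.0156). DNAJB9, a co-chaperone of BiP, rose by 2.02 and ERO1B, an oxidase that forms disulfide bonds, by 2.16. The 1 lower gene was FKBP11, a prolyl isomerase, from 9.33, 10.01 and 9.20 to 8.27, 8.19 and 8.48.

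The change was more negative in Ota than in control cells for 16 of the 23 genes of this list by the test of the difference, and more positive for none, where 5.79% and 15.5% of all genes were called. HSP90B1, the ER form of HSP90, stood at 11.64, 11.43 and 11.39 at 24 h and 11.60, 12.48 and 11.76 at 72 h. Those times overlapped, and its change of 0.46 ± 0.20 did not pass the test (adjusted p = 0.101; 0.0435 without replicate 1 of Ota cells at 72 h, and 0.0369 with probe sets averaged). Control cells rose by 2.01 (difference -1.56 ± 0.28, adjusted p = 0.00368). CRELD2 and HYOU1, further folding factors, rose by 1.41 and 1.10 in Ota cells and by 3.48 and 3.06 in control cells, differences of -2.07 and -1.96. For ERO1B the difference was -2.29. CALR and CANX, the lectin chaperones calreticulin and calnexin, changed by -0.09 and 0.12 in Ota cells, neither passing the test, and by 0.71 and 0.87 in control cells. The sign for CANX in Ota cells turned with a common median, and that for CALR on probe sets specific to 1 transcript.

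The ER stress element, CCAAT and CCACG with 9 bases between them, was present in 22 of the 27305 promoters, 0.0806%, counting both strands. It lay in 6 of the 22 list members with a promoter sequence, and in XBP1. Of the 6, 3 (HSPA5, CRELD2 and ERO1B) were called higher and the others were HSP90B1, CALR and CANX. HSP90B1 held 2 such elements, of which 1 is shown, and HSPA5, CRELD2 and XBP1 held 1 each. The element is in capitals in HSPA5 (GRCh38.p14, chr9:125241376-125241424, minus strand), CRELD2 (chr22:49918539-49918587, plus strand, element on the reverse strand), HSP90B1 (chr12:103930201-103930249, plus strand) and XBP1 (chr22:28800588-28800636, minus strand), so that genes with a like element and unlike changes can be set side by side.
HSPA5: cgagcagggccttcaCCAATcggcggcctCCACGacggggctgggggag
CRELD2: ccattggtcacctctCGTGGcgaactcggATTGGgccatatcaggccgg
HSP90B1: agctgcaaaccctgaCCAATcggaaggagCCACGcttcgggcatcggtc
XBP1: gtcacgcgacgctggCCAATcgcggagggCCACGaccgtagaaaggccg

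Sensors of the unfolded protein response and factors of ER-associated degradation gave 10 higher and no lower of 22 genes tested. The higher genes made 45.5% of the list, against 22.2% of all genes. The median was 0.34 in Ota cells and 1.11 in control cells. ERN1, which encodes IRE1, went from 7.57, 7.92 and 7.44 to 9.82, 10.80 and 10.66. XBP1, the factor activated by IRE1, went from 8.54, 8.55 and 8.52 to 10.07, 10.58 and 10.64, a 3.71-fold rise (0.60 with probe sets averaged). EIF2AK3, which encodes PERK, rose by 1.08 (0.53 with probe sets averaged). HERPUD1, a scaffold of ER-associated degradation, went from 10.64, 10.46 and 10.53 to 12.74, 13.59 and 13.30. The rise of ERN1 was smaller in Ota than in control cells by 1.24 ± 0.35 (adjusted p = 0.0269), a call that was lost without any 1 of 4 arrays, with adjusted p up to 0.063, and with probe sets averaged (-0.53, adjusted p = 0.136). Of 36 genes of ER translocation and vesicle traffic, 2 were higher (SEC24D and SEC31A) and 2 lower (KDELR1 and SPCS3), all 4 by 0.77 or less in size and each uncalled without at least 3 of the arrays in turn. Each direction made 5.56% of that list, against 22.2% higher and 9.99% lower over all genes. In that list 18 genes had a smaller or more negative change in Ota than in control cells and none a larger one. Over all genes the difference was more negative for 5.79% and more positive for 15.5%.

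**Figure D3:**
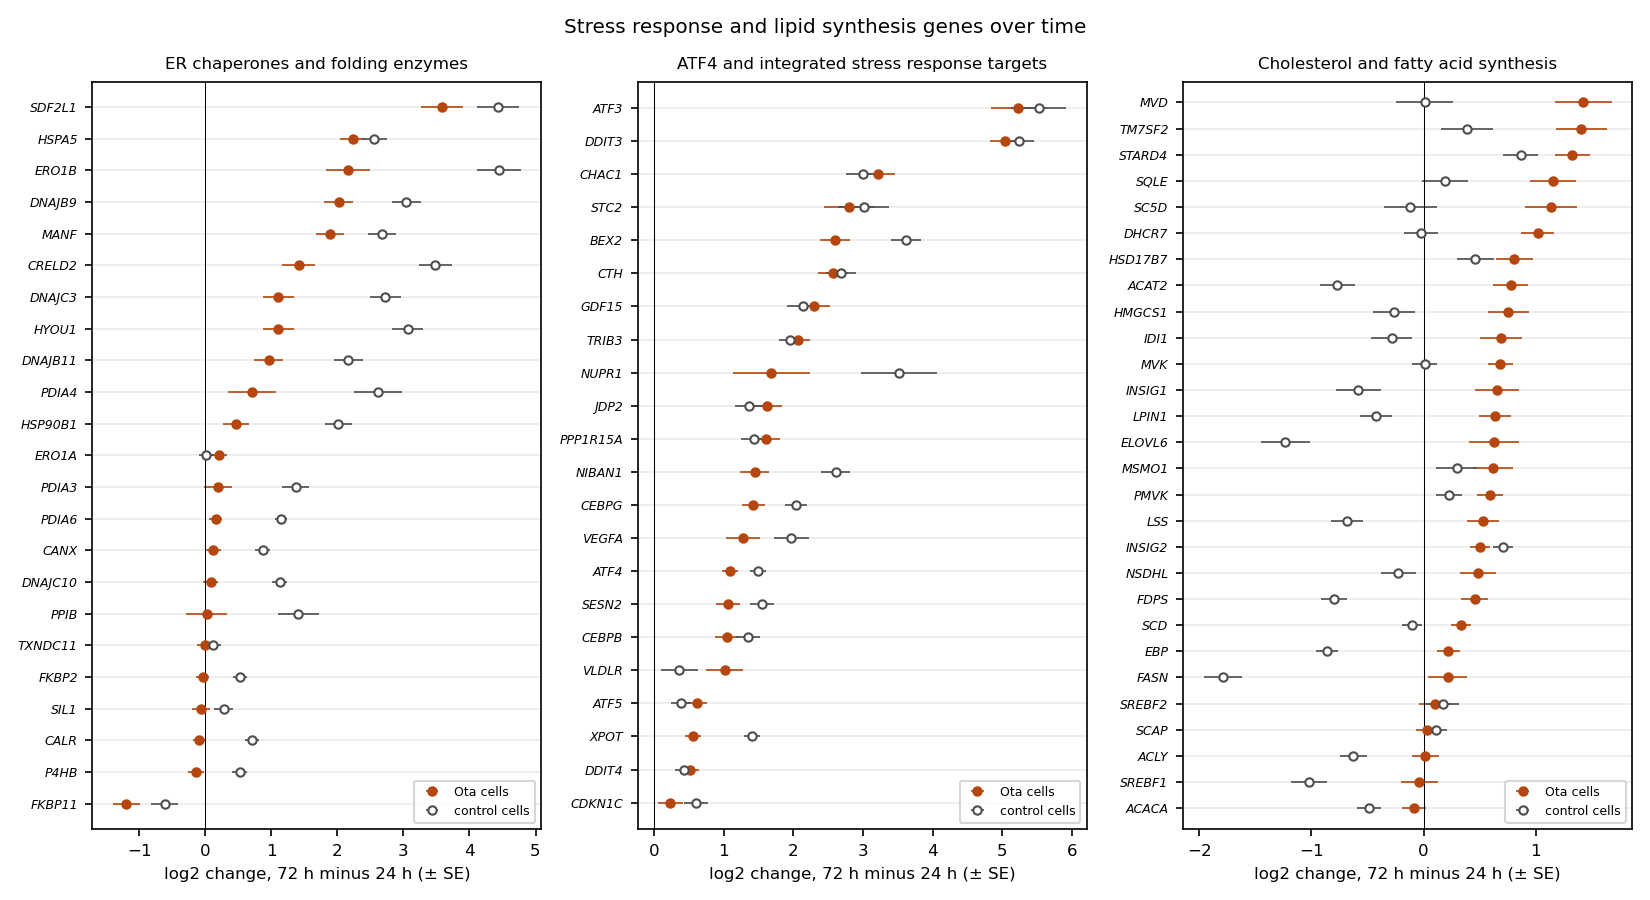
Log2 change from 24 h to 72 h (horizontal axis, points with SE) of every gene tested in 3 lists, in Ota cells (filled) and control cells (open). Chaperone genes such as HYOU1 (1.10 and 3.06) moved less in Ota cells, DDIT3 (5.03 and 5.24) rose in both, and SQLE (1.15 and 0.19) moved more in Ota cells.

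Genes of amino acid supply, many of them ATF4 targets, rose in part in Ota cells, and in control cells as well. Of 16 amino acid transporters tested 14 were higher and none lower, with a median of 0.75, where 22.2% and 9.99% of all genes were called. In control cells 10 were higher and none lower, with a median of 0.55. SLC7A5, which carries large neutral amino acids, went from 5.91, 6.05 and 5.72 to 7.82, 8.60 and 8.58, a 5.43-fold rise. SLC7A2, a carrier of basic amino acids, rose by 1.18. With its probe sets averaged the rise was 0.38, but the others lay at the floor, at 2.18 and 2.44 at 24 h. Of 17 cytosolic aminoacyl-tRNA synthetases, the enzymes that load tRNAs, 7 were higher and none lower, among them AARS1, SARS1 and YARS1 by 1.38, 0.97 and 0.80. The list median was 0.31 in Ota cells and 0.69 in control cells, where 10 were higher and 1 lower. The change was more negative in Ota than in control cells for 7 of the 17 and more positive for 1. YARS1 was not called on probe sets specific to 1 transcript (0.31, adjusted p = 0.495). The enzymes of serine, one-carbon and asparagine metabolism gave 8 higher and 1 lower of 13, with a median of 0.55. Control cells gave 10 higher and 2 lower, with a median of 1.07. The change was more negative in Ota cells for 4 genes and more positive for 2. ASNS, which makes asparagine, went from 9.05, 9.35 and 8.80 to 10.19, 11.07 and 10.67, CBS, which makes cystathionine, rose by 1.28 and PCK2, a mitochondrial carboxykinase, by 1.29; with probe sets averaged ASNS rose by 0.77 and CBS by 0.74. The 1 lower gene was TYMS, thymidylate synthase, at -0.42 (uncalled without replicate 2 of either Ota group, adjusted p up to 0.0528). ALDH1L2, a mitochondrial folate enzyme, went from 4.43, 4.34 and 4.08 to 4.99, 6.78 and 5.60 (1.50 ± 0.41, adjusted p = 0.0157; 0.48 and uncalled with probe sets averaged), against a control rise from 4.23 to 8.88. Its difference of -3.15 ± 0.57 was the most negative among genes with all 4 group means of at least 4 (adjusted p = 0.00379; -1.53 with probe sets averaged).

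Genes of this stress group shared an order of arrays. Replicate 1 at 72 h was the least moved of the 3 arrays at that time in 9 of 9 called higher ER chaperones, 10 of 10 sensors and degradation factors, 19 of 21 ATF4 targets, 7 of 7 synthetases and 12 of 14 amino acid transporters. Over all genes called higher it was the least moved in 744 of 2378, 31.3%. In the mitosis list below replicate 2 was the most moved in 33 of 34 lower genes, against 475 of 1069 over all lower genes, and replicate 1 the least moved in 20 of 34.

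TXNIP and its relative ARRDC4 are targets of the glucose-sensing factors MondoA and ChREBP, which bind a pair of E-box-like elements. ARRDC4 fell from 5.98, 5.16 and 6.18 to 3.05, 3.57 and 3.22, below the filter at 72 h. The pair, 2 copies of CACGNG with 5 bases between them, lay in 16 of the 27305 promoters, 0.0586%, and TXNIP was 1 of 2 carriers among 34 glycolysis and hypoxia genes (the other was P4HA1, which was not called). In TXNIP it lies at chr1:145996636-145996682 (GRCh38.p14, minus strand; capitals mark the element).
TXNIP: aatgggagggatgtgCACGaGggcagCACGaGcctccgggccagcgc

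The glycolysis and hypoxia list was mixed, with 11 of 38 genes higher and 9 lower. These were 28.9% and 23.7%, against 22.2% and 9.99% of all genes. TXNIP, ARRDC4 and EGLN3, an enzyme of the oxygen-sensing pathway, were among the lower genes. The count of higher genes was 7 without replicate 1 at 24 h or replicate 2 or 3 at 72 h of Ota cells. It was also 7 with a common median. Control cells gave 8 higher and 15 lower in this list. The change was more positive in Ota than in control cells for 13 genes and more negative for 2.

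Mitotic genes fell together: 34 of 39 tested were lower at 72 h and none was higher, with a median of -0.98 in Ota cells. The lower genes made 87.2% of the list, against 9.99% of all genes. Leaving out any 1 array gave 32 to 35, and a common median gave 35. MKI67, the proliferation antigen Ki-67, went from 10.47, 10.49 and 10.51 to 10.02, 9.36 and 9.69, a fall of 0.80 ± 0.18 (adjusted p = 0.00661). All arrays at 72 h lay below those at 24 h. BIRC5 (survivin), a chromosomal passenger, went from 10.41, 10.58 and 10.46 to 9.43, 8.94 and 9.33, and KIF20A, a kinesin of cytokinesis, from 9.94, 10.39 and 10.13 to 8.89, 8.41 and 8.93. CDCA8, PLK1 and CDC20 fell by 1.21, 1.38 and 1.12. Control cells fell further, with all 39 genes lower, against 23.6% of all genes, and a median of -1.83. For 29 of the 39 the fall was smaller in Ota cells by the test of the difference, against 15.5% of all genes. MKI67 fell by 2.28 in control cells, from 11.25 to 8.97, a difference of 1.48 ± 0.26 (adjusted p = 0.00287).

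The cell cycle homology region TTTGAA, bound in many mitotic promoters by the DREAM and B-MYB complexes, lay in 17 of 33 list members with a promoter sequence, 51.5%, and in 13.6% of all 27305 promoters; 16 of the 17 were called lower. It is in capitals in CDCA8 (chr1:37692478-37692513, plus strand), MKI67 (chr10:128126450-128126485, minus strand) and PLK1 (chr16:23678845-23678880, plus strand), all GRCh38.p14.
CDCA8: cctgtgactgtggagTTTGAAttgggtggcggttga
MKI67: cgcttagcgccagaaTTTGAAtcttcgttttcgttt
PLK1: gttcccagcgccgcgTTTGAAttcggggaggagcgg

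Genes of DNA replication did not follow the mitotic genes. In Ota cells 5 of 40 were higher, 5 were lower and 30 were not called, with a median of -0.040. Each direction made 12.5% of the list, against 22.2% higher and 9.99% lower over all genes. In control cells 36 of 40 fell, against 23.6% of all genes, with a median of -1.40. The change was more positive in Ota than in control cells for 38 of the 40 genes and more negative for none. Over all genes the difference was more positive for 15.5%. MCM10, which helps to activate the replicative helicase, stood at 7.50, 7.46 and 7.63 at 24 h and at 7.19, 7.27 and 7.27 at 72 h, a change of -0.29 ± 0.17 that did not pass the test (adjusted p = 0.228; 0.0418 in a fit of the Ota arrays alone). Control cells went from 7.62 to 4.55, a difference of 2.79 ± 0.24 (adjusted p = 7.47e-05). UHRF1, which guides DNA methylation after replication, went from 10.58, 10.37 and 10.54 to 10.11, 10.25 and 10.03, and in control cells from 10.93 to 8.21 (difference 2.35 ± 0.14, adjusted p = 1.06e-05).

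The 5 higher replication genes were POLA2 and PRIM1, subunits of the primase complex, CDC6, an origin licensing factor, GINS2 of the helicase and RFC4 of the clamp loader. POLA2 went from 4.60, 4.08 and 5.30 to 5.67, 6.06 and 5.88, a rise of 1.21 ± 0.24, and fell in control cells from 7.66 to 5.73 (difference 3.14 ± 0.34, adjusted p = 0.000227; with probe sets averaged the rise was 0.39 and the difference 1.17). PRIM1 went from 9.14, 9.00 and 9.25 to 9.84, 10.13 and 9.84. CDC6, GINS2 and RFC4 rose by 1.01, 0.44 and 0.41, and the lower genes RPA1, GINS1, UHRF1, POLA1 and ORC6 fell by 0.28, 0.44, 0.37, 0.40 and 0.48. CDC6, RFC4 and ORC6 lost their calls without any 1 of 3, 5 and 7 arrays. The higher count was 2 or 3 without any 1 of 5 Ota arrays (replicates 1 and 2 at 24 h, all 3 at 72 h), the lower count was 3 without replicate 2 at 72 h, and 12 genes were lower and 3 higher with a common median.

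The E2F element TTTCCCGC lay in 8 of 34 replication promoters, 23.5%, against 1.42% of all promoters, and a second form, TTTGGCGC, in 4 of 34 against 0.553%. UHRF1 (GRCh38.p14, chr19:4909472-4909500, plus strand) and GINS2 (chr16:85688963-85689000, minus strand) carry the first form on the reverse strand and are the 2 of its 8 carriers that were called in Ota cells, GINS2 higher and UHRF1 lower. GINS2 lost its call without any 1 of 4 arrays (adjusted p up to 0.106) and UHRF1 without either of 2 (up to 0.0558).
UHRF1: aaatgccgagttttcGCGGGAAAaaaatc
GINS2: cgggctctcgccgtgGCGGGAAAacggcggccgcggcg

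**Figure D4:**
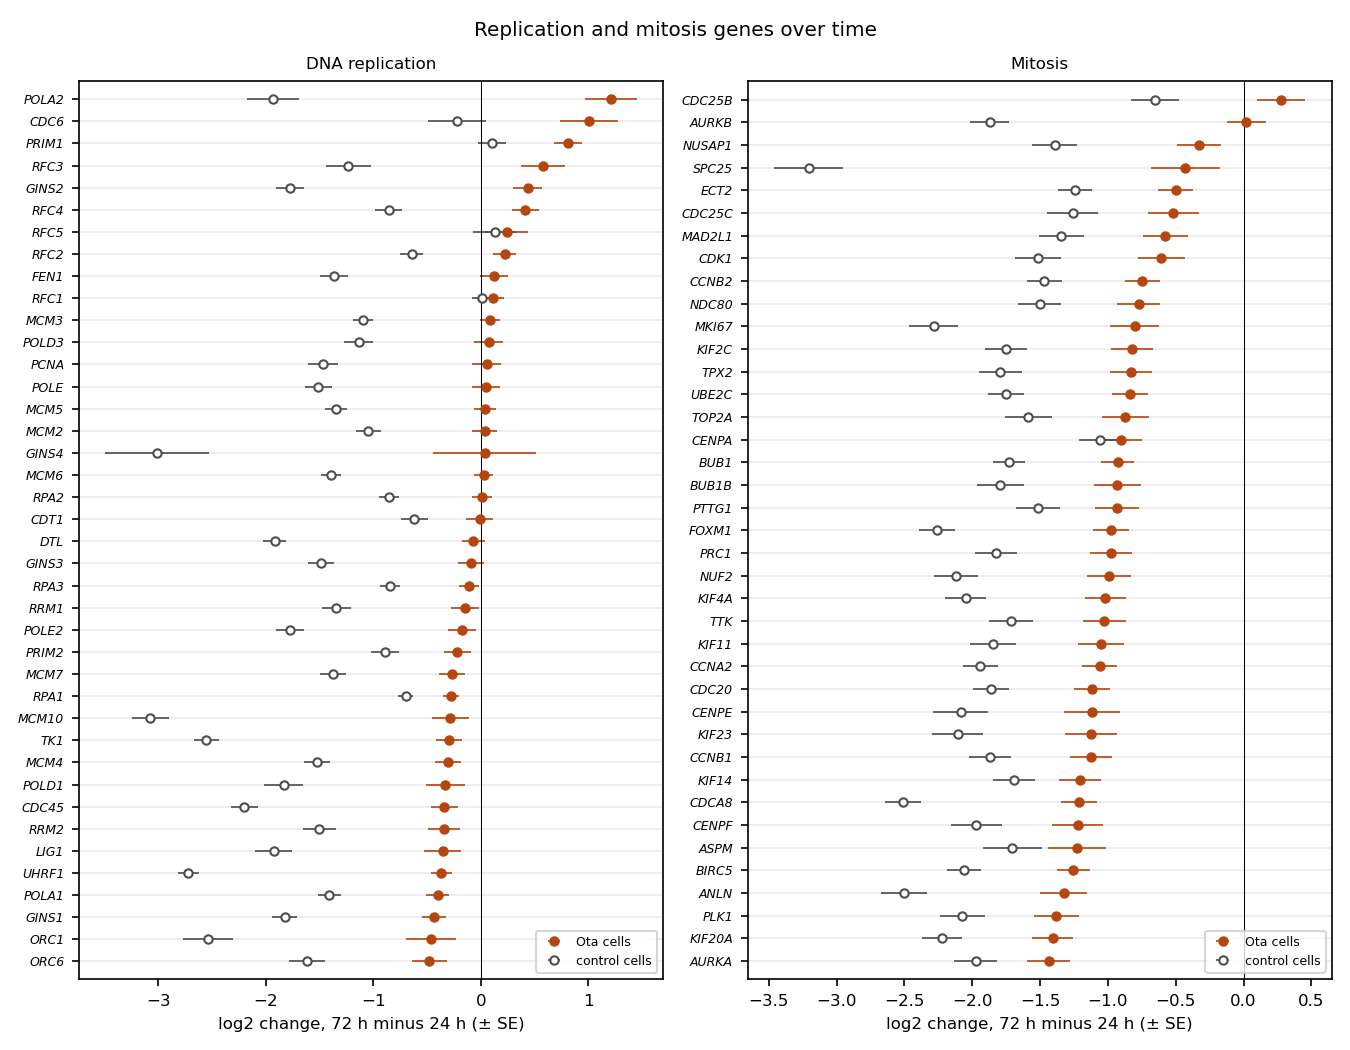
Log2 change from 24 h to 72 h (horizontal axis, points with SE) of every replication gene (left) and mitosis gene (right) tested, in Ota cells (filled) and control cells (open). In Ota cells replication genes lie around 0 (median -0.040) and mitosis genes around -0.98, while in control cells both lists lie lower (medians -1.40 and -1.83).

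Regulators of the G1 phase were split, with 17.4% of 23 tested higher and 13% lower, against 22.2% and 9.99% of all genes. CDKN1A, the CDK inhibitor p21, went from 8.96, 8.77 and 8.85 to 9.66, 9.75 and 10.04, a 1.94-fold rise (adjusted p = 0.000297), with E2F7, CCNE2 and CDK4 also higher by 0.57, 0.56 and 0.30. With probe sets averaged E2F7 was not called (0.21, adjusted p = 0.103), nor was CDK4 with a common median (0.17, adjusted p = 0.127). Lower were MYBL2 (B-MYB) by 1.07, cyclin D1 (CCND1) by 1.06 and CDKN2A by 0.42. E2F7, a repressor of the E2F programme, and CCNE2, a cyclin of S phase entry, fell in control cells from 8.34 to 6.34 and from 9.48 to 7.62, with differences of 2.57 ± 0.19 and 2.42 ± 0.23 (adjusted p = 3.35e-05 and 0.000107; 1.23 for E2F7 with probe sets averaged). The 4 higher calls became 2 without replicate 2 of either Ota group, CCND1 was not called without replicate 1 at 24 h or replicate 2 or 3 at 72 h (adjusted p up to 0.121), and the list median changed sign with a common median, from 0.033 to -0.10. Of 25 genes of recombination and the Fanconi pathway, RAD50 was higher by 0.81 and ATR, BRIP1 and XRCC2 were lower by 0.62, 0.71 and 0.62; XRCC2 was uncalled without any 1 of 3 arrays, RAD50 on probe sets specific to 1 transcript (0.37, adjusted p = 0.155; 0.29 with probe sets averaged) and BRIP1 with probe sets averaged (-0.44, adjusted p = 0.0565). The higher gene made 4% of this list and the lower ones 12%, against 22.2% and 9.99% of all genes. In all, 14 of the list had a more positive change in Ota than in control cells. BRIP1, a helicase of interstrand crosslink repair, stood at 8.50, 8.70 and 8.65 and then 7.90, 7.89 and 7.93, against a control fall from 8.93 to 6.05.

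Histone genes gave 2 higher and 1 lower of 13 tested, 15.4% and 7.69%, against 22.2% and 9.99% of all genes. The linker histone H1-2 went from 5.63, 5.73 and 6.16 to 6.64, 6.67 and 6.75, and in control cells from 5.46 to 3.51 (difference 2.80 ± 0.20, adjusted p = 3.35e-05). H1-10 and H2AZ2 changed by 0.32 and -0.41, each uncalled without any 1 of at least 4 arrays. H2AC6 stood at 9.87, 10.26 and 10.61 and at 10.85, 10.65 and 10.92, a change of 0.56 ± 0.36 (adjusted p = 0.253), while control cells went from 4.74 to 7.70. Near-identical histone genes can share probes, so single members are uncertain.

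Genes of cholesterol and fatty acid synthesis rose in Ota cells: 21 of 28 were higher, 75% against 22.2% of all genes, and none was lower. The list median was 0.62 against -0.17 in control cells. These genes are controlled by SREBP factors, which respond to low sterol. An exact form of the sterol element bound by SREBP factors lay in 10 of the 27305 promoters, 0.0366%. Of 25 tested list members with a promoter sequence 1 held it, SREBF2, which was not called. Control of the list by SREBP factors was not tested. SQLE, squalene epoxidase, went from 11.76, 11.19 and 11.81 to 12.88, 12.37 and 12.96, a 2.23-fold rise. All arrays at 72 h lay above those at 24 h, and replicate 2 was the lowest at both times. HMGCS1, at the head of the mevalonate route, went from 10.72, 10.56 and 10.85 to 11.60, 11.08 and 11.70, and DHCR7, the last enzyme of cholesterol synthesis, rose by 1.02. STARD4, a sterol carrier, rose by 1.33 and MVK, mevalonate kinase, by 0.68. The change was more positive in Ota than in control cells for 20 of 28 genes and more negative for none. Over all genes the difference was more positive for 15.5%. FASN, fatty acid synthase, stood at 9.32, 9.13 and 9.30 and at 9.62, 9.19 and 9.60 (0.21 ± 0.17, adjusted p = 0.375), and fell in control cells from 9.68 to 7.89 (difference 2.00 ± 0.25, adjusted p = 0.000435). Leaving out any 1 array gave 14 to 22 higher genes, and a common median gave 15.

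Immediate-early genes and feedback regulators of MAPK signalling gave 16 higher and no lower of 28, 57.1% higher against 22.2% of all genes. The median was 0.61 in Ota cells and -0.0080 in control cells. For 12 genes the change was more positive in Ota cells, against 15.5% of all genes. PHLDA1 went from 8.21, 7.05 and 8.05 to 9.70, 9.40 and 9.78, a 3.63-fold rise. JUND, an AP-1 subunit, rose by 0.90, from 11.33, 11.24 and 11.48 to 12.14, 12.23 and 12.37. IER2 went from 9.06, 9.14 and 9.21 to 9.93, 9.99 and 10.02, and stood at 10.24 and 10.16 in control cells. In the NF-kB, cytokine and chemokine list 15 of 27 were higher, 55.6% against 22.2% of all genes, and none was lower. The higher count was 9 with a common median. Control cells gave 4 higher and 3 lower in this list, with a median of 0.23 against 0.62 in Ota cells. CXCL2, a neutrophil chemokine, went from 7.31, 8.05 and 7.31 to 8.89, 9.78 and 10.50 (0.72 with probe sets averaged instead of 2.17). Its means in control cells were 9.07 and 10.14, a rise of 1.06. The difference of 1.10 ± 0.55 did not pass the test (adjusted p = 0.181, limma). CCL2, a monocyte chemokine, went from 7.67, 6.98 and 8.43 to 9.22, 8.81 and 10.09. NFKBIA, the inhibitor IkB-alpha, rose by 0.89 and TNFAIP8 by 0.99, and both differed from control cells, by 1.10 and 1.40.

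Interferon-stimulated genes gave 10 higher and 1 lower of 35, near the share of 22.2% of all genes called higher. The higher count was 4 without replicate 1 at 24 h or replicate 2 at 72 h, and 6 without replicate 3 at 24 h, without replicate 1 at 72 h or with a common median. IFI35 went from 2.76, 2.39 and 2.40 to 5.41, 5.09 and 3.94, a change limited by the floor, and stood at 7.01 and 6.43 in control cells. IFIT1, an RNA sensor, fell by 1.30, from 7.95, 7.83 and 8.12 to 7.04, 6.51 and 6.44.

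Receptors and ligands of the EGF family gave 4 higher of 15, near the 22.2% of all genes: EREG (epiregulin) by 1.58, ADAM10, a protease that sheds such ligands, by 0.55, BTC (betacellulin) by 0.71 and SHC1 by 0.34. BTC and SHC1 lost their calls without any 1 of 9 and 10 arrays, and EREG rose by 0.79 with probe sets averaged. EGFR, the receptor, stood at 11.70, 11.70 and 11.63 and at 11.81, 11.58 and 12.03 (0.13 ± 0.12, adjusted p = 0.447), a sign that turned with a common median. Targets of TGF-beta and Hippo signalling gave 9 higher and 3 lower of 30, against 22.2% and 9.99% of all genes, with 5 higher without replicate 2 at 24 h. CCN2, a matricellular YAP target, went from 7.76, 6.20 and 7.95 to 9.49, 8.88 and 9.50 (adjusted p = 0.0147, and 0.057 without replicate 2 at 24 h), ID2, a BMP target, rose by 1.05, and TGFBI, AXL and LTBP2 fell by 1.37, 0.70 and 1.01. LTBP2 lost its call without any 1 of 3 arrays, with adjusted p up to 0.0965.

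Extracellular matrix genes were lower in 11 and higher in 2 of 41 tested, 26.8% and 4.88%, against 9.99% and 22.2% of all genes. Control cells gave 17 lower and 3 higher, with a median of -0.16 against -0.13 in Ota cells. COL6A1, a collagen VI chain, went from 9.75, 10.19 and 9.47 to 8.61, 8.63 and 8.34, and MMP7, matrilysin, from 10.09, 10.44 and 10.27 to 9.08, 9.38 and 9.13. COL7A1 fell by 1.04. With probe sets averaged COL6A1 fell by 0.33. MMP7 fell by 2.40 in control cells (difference 1.33 ± 0.18, adjusted p = 0.000686). In Ota cells the higher genes were the basement membrane chains COL4A5 and COL4A4, by 0.86 and 0.87. COL4A4 was not called without any 1 of 8 arrays. In the list of junction and keratin genes, which does not hold KRT20, few of 31 tested were called. The shares were 9.68% higher and 6.45% lower, against 22.2% and 9.99% of all genes. Occludin (OCLN), plakoglobin (JUP) and PKP2 were higher by 0.78, 0.56 and 0.64, and VIM and NECTIN2 lower by 0.34 and 1.14. Another NECTIN2 probe set at a like level rose, from a mean of 5.71 to 6.33, while the remaining ones changed by -1.285 and -1.401. VIM, the mesenchymal filament vimentin, stood at 13.43, 13.53 and 13.25 and at 13.02, 13.21 and 12.95 (adjusted p = 0.0383), and both lower calls were lost without any 1 of 6 or more arrays, and that of PKP2 without any 1 of 3.

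Kidney injury markers gave 5 higher and 5 lower of 26, with a median near 0. Each direction made 19.2% of the list, against 22.2% higher and 9.99% lower over all genes. Control cells gave 5 higher and 10 lower in this list, with a median of -0.18. HAVCR1 (KIM-1), a marker of injured proximal tubule, went from 11.03, 10.29 and 11.04 to 11.48, 11.52 and 11.59, a 1.68-fold rise (0.74 ± 0.19, adjusted p = 0.0123; 0.50 without replicate 2 at 24 h, which was the lowest array). Control cells went from 10.68 to 9.84, so the difference was 1.58 ± 0.27 (adjusted p = 0.00271). GDF15, clusterin (CLU, 0.81), CCN1 (0.80) and PROM1 were also higher; CCN1 was uncalled without replicate 2 at 24 h or replicate 3 at 72 h (adjusted p up to 0.0844). PROM1, a stem and regenerating tubule marker, went from 5.10, 5.95 and 6.24 to 6.97, 7.25 and 7.63, and stood at 5.02 and 4.43 in control cells (difference 2.12 ± 0.53, adjusted p = 0.0162, and 0.0592 with no filter). ANXA2, CD44, TIMP1, VIM and S100A6 were lower, by 0.61, 0.78, 0.40, 0.34 and 0.32, a count that was 3 without any 1 of 6 arrays. LCN2 (NGAL) stood at 4.02, 4.32 and 4.87 and at 4.01, 5.32 and 4.85 (adjusted p = 0.625), near the floor.

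Most proximal tubule transport genes were at the floor, and 7 of 32 measured were tested. Higher were MIOX, the kidney inositol oxygenase, from 8.05, 7.92 and 7.94 to 8.81, 8.89 and 8.77, SLC3A1, a subunit of the cystine transporter, by 1.04 (0.35 with probe sets averaged), SLC4A4, the bicarbonate cotransporter, by 0.44, and SLC17A1 by 0.90. SLC4A4 was not called without replicate 2 at 24 h or replicate 3 at 72 h (adjusted p up to 0.0614), nor SLC17A1 without any 1 of 4 arrays. Of 11 organic anion and drug transporters tested, the efflux pumps ABCB1 and ABCC1 were higher by 0.95 and 0.24, and ABCC3, SLC22A4 and SLCO2A1 lower by 1.28, 1.16 and 0.47. These were 18.2% and 27.3% of the list, against 22.2% and 9.99% of all genes. ABCC3 went from 10.30, 10.53 and 10.05 to 9.15, 8.64 and 9.26 (0.76 in size with probe sets averaged). ABCC1 and SLCO2A1 lost their calls without any 1 of 5 and 6 arrays.

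**Figure D5:**
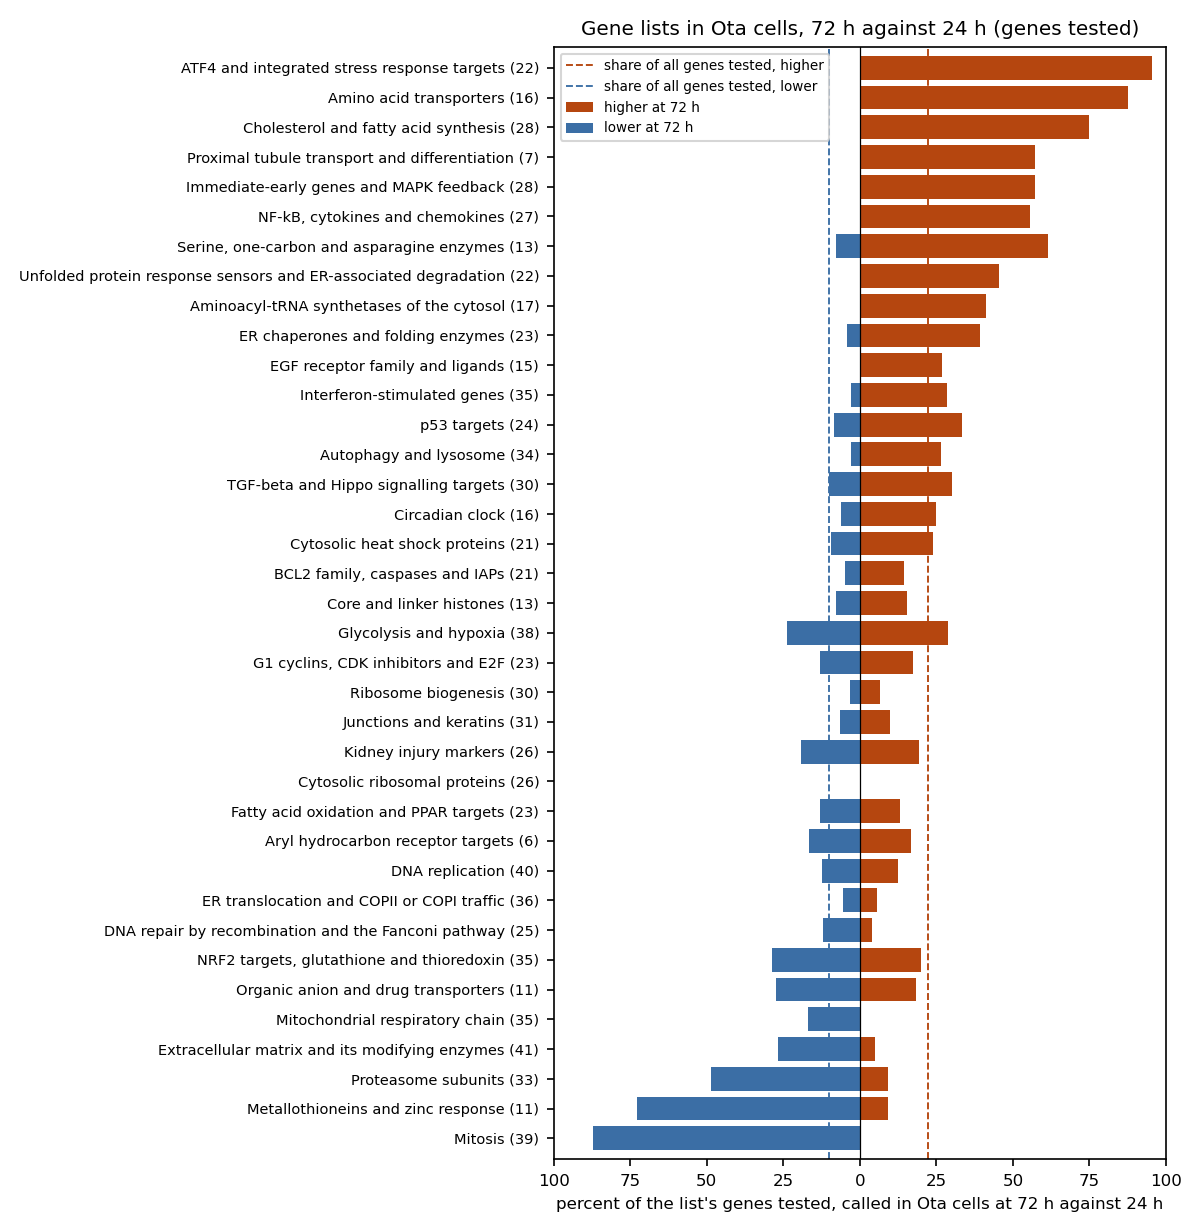
Share of genes called higher (right) or lower (left) in Ota cells at 72 h against 24 h (horizontal axis, percent of the genes tested) for each list with at least 5 genes tested, whose number is in brackets; dashed lines mark the shares over all genes, 22.2% and 9.99%. ATF4 targets (21 of 22 higher) and mitosis genes (34 of 39 lower) stand at the ends.

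Metallothioneins, small zinc-binding proteins, were lower in 8 of 11 genes of their list, 72.7% against 9.99% of all genes. The median was -0.76 in Ota cells and -0.91 in control cells. MT2A went from 13.86, 13.92 and 13.78 to 13.19, 13.00 and 13.04. MT1G and MT1M fell by 1.10 and 1.18. The 1 higher gene was SLC39A14, a zinc importer, by 0.62 (uncalled without replicate 2 at 72 h, adjusted p = 0.0628). These genes are near-identical and can share probes: 2 of the list were called lower on probe sets specific to 1 transcript, with a median of -0.15. Among targets of NRF2, the regulator of antioxidant genes, and glutathione and thioredoxin genes, 7 of 35 were higher and 10 lower. These were 20% and 28.6%, against 22.2% and 9.99% of all genes. Control cells gave 7 higher and 17 lower in this list. Its largest rise in Ota cells was that of SLC7A11, by 3.68. NQO1, a quinone reductase, went from 9.45, 9.66 and 8.98 to 8.48, 8.39 and 8.40, while GPX3, a secreted peroxidase, went from 12.70, 12.58 and 12.87 to 13.69, 13.62 and 13.85. HMOX1, heme oxygenase, stood at 7.09, 6.85 and 6.91 and at 6.93, 7.20 and 7.16 (0.15 ± 0.13, adjusted p = 0.408), a sign that turned with quantile normalization repeated. The higher NRF2 count was 4 without replicate 2 at 72 h and with a common median.

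Proteasome subunits were lower in 16 of 33, with a median of -0.22 in Ota cells and -0.29 in control cells. The lower genes made 48.5% of the list and the higher ones 9.09%, against 9.99% and 22.2% of all genes. PSMB6, a catalytic subunit, went from 11.47, 11.52 and 11.34 to 10.69, 10.79 and 10.77, and PSMB2 and PSMD2 fell by 0.63 and 0.45 (1.49 for PSMB2 on probe sets specific to 1 transcript). The 3 higher genes were the immunoproteasome subunits PSMB9 (0.69) and PSMB8 (0.35) and the activator PSME4 (0.46). The lower count was 10 without replicate 1 or 3 at 24 h, or without replicate 1 or 2 at 72 h. PSMB8 was not called without any 1 of 3 arrays or with a common median, nor PSME4 with probe sets averaged (0.25, adjusted p = 0.0804). Autophagy and lysosome genes gave 9 higher and 1 lower of 34, a higher share near the 22.2% of all genes. The higher count was 4 with a common median or with quantile normalization repeated, and 5 without replicate 2 at 24 h or replicate 2 or 3 at 72 h. GABARAP, a component of the autophagosome membrane, rose by 0.39, and SQSTM1 (p62), an autophagy receptor, by 0.80, but on probe sets specific to 1 transcript SQSTM1 changed by -0.086. The lower gene was WIPI2, at -0.45 (adjusted p = 0.051 on probe sets specific to 1 transcript).

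Of 35 respiratory chain genes 6 were lower, 17.1%, and none higher, against 9.99% and 22.2% of all genes. Control cells gave 19 lower and none higher, with a median of -0.32 against -0.092 in Ota cells. The change was more positive in Ota than in control cells for 5 of these genes and more negative for none. ATP5MC1, of the ATP synthase, went from 9.31, 9.33 and 9.31 to 8.83, 8.36 and 8.35, and NDUFA9 and COX7B fell by 0.37 and 0.46; with probe sets averaged COX7B was not called (-0.18, adjusted p = 0.157). In Ota cells the lower count was 3 without replicate 3 at 72 h and 15 with a common median. With probe sets averaged 3 genes were higher. Fatty acid oxidation genes were split, with ECI1, HADHB and PPARA higher by 0.80, 0.33 and 0.57 and ACADVL, ACAA1 and ECI2 lower by 1.89, 0.37 and 0.36, of 23. Each direction made 13% of the list, against 22.2% higher and 9.99% lower over all genes. ECI2 was not called without replicate 2 of either Ota group (adjusted p up to 0.0798), HADHB was not called with a common median (adjusted p = 0.0532), and the change of ACAA1 was 0.0014 with probe sets averaged. ACADVL went from 10.00, 10.23 and 9.94 to 8.13, 7.83 and 8.54, and in control cells from 10.16 to 9.39 (difference -1.12 ± 0.28, adjusted p = 0.0166, and 0.0519 with no filter).

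Targets of p53 gave 8 higher and 2 lower of 24, 33.3% and 8.33%, against 22.2% and 9.99% of all genes. Control cells gave 7 higher and 6 lower. For 2 genes the change was more positive in Ota than in control cells, and for none more negative. TP53I3, a quinone oxidoreductase, went from 5.38, 5.68 and 5.66 to 7.00, 6.41 and 6.87, and stood at 8.05 and 8.02 in control cells (difference 1.22 ± 0.23, adjusted p = 0.00428). CCNG1, a cyclin induced by p53, rose by 0.60. TNFRSF10D and SESN1 were lower by 0.46 and 0.40; SESN1 lost its call without any 1 of 5 Ota arrays. Of 21 genes of the BCL2 family, caspases and their inhibitors, BCL2L2, DIABLO and BCL2 were higher and APAF1 lower. These were 14.3% and 4.76% of the list, against 22.2% and 9.99% of all genes. BCL2L2, a survival factor, went from 5.15, 4.54 and 5.01 to 6.79, 7.02 and 6.71, a rise of 1.94 ± 0.16 (0.98 with probe sets averaged). Its means in control cells were 6.66 at 24 h and 7.18 at 72 h, above the means of 4.90 and 6.84 in Ota cells. DIABLO, BCL2 and APAF1 changed by 0.34, 0.66 and -0.37; a common median ended the calls of DIABLO and BCL2, and BCL2 and APAF1 were uncalled without any 1 of 5 and 6 arrays.

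Cytosolic heat shock genes gave 5 higher and 2 lower of 21, near the 22.2% and 9.99% of all genes. CRYAB, a small heat shock protein, went from 10.76, 10.88 and 10.90 to 11.59, 11.70 and 11.68 and fell in control cells from 11.23 to 10.68 (difference 1.37 ± 0.12, adjusted p = 7.47e-05). DNAJB2, DNAJB1, CHORDC1 and HSF1 were higher by 1.35, 0.59, 0.60 and 0.27, and HSPA4 and BAG3 lower by 0.63 and 0.45. HSF1 and CHORDC1 lost their calls without any 1 of 5 and 3 arrays, and HSF1 with probe sets averaged (0.11, adjusted p = 0.349). The higher count was 3 without replicate 2 at 24 h or replicate 1 at 72 h. Of 26 cytosolic ribosomal protein genes limma called none, with changes from -0.10 to 0.26 and a median of 0.049; at an unadjusted p under 0.05 2 were higher and 0 lower, and 1 to 4 were called higher under 10 of the other settings. Of 30 genes of ribosome biogenesis MYBBP1A and UTP4 were higher by 0.37 and 0.24 and NHP2 lower by 0.26. These calls were each lost in 6 or more settings. They made 6.67% and 3.33% of the list, against 22.2% and 9.99% of all genes. Clock genes NR1D2, BHLHE41, BMAL1 and NFIL3 were higher by 0.64, 0.39, 0.72 and 0.66 and TEF lower by 0.40, of 16, a higher share near that of all genes. NFIL3 and TEF were each uncalled without any 1 of 3 arrays. Of 6 aryl hydrocarbon receptor genes ARNT was higher by 0.56 (uncalled without any 1 of 3 arrays) and NQO1 lower.

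Among genes with all group means of at least 4, the largest positive differences between the time changes were those of KRT20, POLA2, WDR76, UCA1 and MCM10, and the largest negative ones those of ALDH1L2, LINC01963, BCAT1, TMEM45A and H2AC6. WDR76 went from 6.38, 4.82 and 5.65 to 7.62, 7.91 and 7.15 and fell in control cells from 7.04 to 5.93. UCA1, a long non-coding RNA, stood at 4.15, 4.14 and 5.04 and at 5.24, 4.85 and 6.61, a change that did not pass the test (1.12 ± 0.45, adjusted p = 0.0755; called without replicate 3 at 24 h, 0.0457, or replicate 2 at 72 h, 0.0415, and with the replicate number as a block, 0.00570), and fell in control cells from 6.60 to 4.86. BCAT1, which transfers the amino group of branched amino acids, and TMEM45A changed by 0.89 and 0.33 in Ota cells, neither called, and rose in control cells by 3.32 and 2.74.

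Markers of other cell types were mostly at the floor. The filter was passed by 3 of 6 markers of podocytes and 4 of 11 of fibroblasts. It was passed by 2 of 11 markers of the distal nephron, 1 of 10 of endothelium and 0 of 8 of leukocytes. Summed log2 levels of the fibroblast markers were 54.6 to 56.1 at 24 h and 52.1 to 53.5 at 72 h in Ota cells, and those of the podocyte markers 30.9 to 31.5 and 28.7 to 30.3. In control cells the fibroblast sums were 54.4 to 55 at 24 h and 49.9 to 50.9 at 72 h. The podocyte sums there were 30.6 to 31.5 and 28.8 to 29.5. ACTA2, smooth muscle actin, fell from 7.29, 6.68 and 6.46 to 6.08, 5.64 and 5.65. PTPRO, a membrane phosphatase, was the brightest podocyte marker and far above the floor, with means of 12.68 at 24 h and 11.65 at 72 h. Its fall of 1.02 lost its call without any 1 of 4 arrays and with probe sets averaged (-0.12). SYNPO and EGFL7 fell by 0.62 and 0.73. SCNN1A, a sodium channel subunit, rose by 0.81 and AQP3, a water channel, fell by 0.89; with probe sets averaged SCNN1A changed by 0.10 and was not called (adjusted p = 0.265). Their part in the other changes was not tested.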

How the data were processed

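The authors deposited log2 expression values of 12 Affymetrix arrays, made with GCRMA per the submitters' processing notes; its version and settings are not given in the sources used here. Of 54675 probe sets 41091 had 1 gene symbol in the platform annotation, 1801 several, 11721 none and 62 were controls; symbols were updated through RefSeq. A gene was read from the probe set with the highest mean over all arrays and tested where that exceeded 4 on at least 3 arrays, which left 10699 of 19775 genes. limma 3.58.1 (R 4.3.3) fitted 1 mean per group over the 12 arrays with lmFit and eBayes, and p-values were adjusted by Benjamini-Hochberg over all genes tested (threshold 0.05). The script was tested on simulated data. Named genes are the 10 largest rises and falls clear of the floor, the 3 largest each way limited by it, the 5 largest differences each way, per list at most 3 called genes ranked by p and, whatever their values, HAVCR1, LCN2, CDKN1A, HMOX1, HSPA5, DDIT3, ATF3, MKI67, EGFR and VIM; all others were chosen after their values were seen. Members and lists were chosen with earlier results of these data known. Promoters are from RefSeq on GRCh38.p14, searched on both strands. Alternatives were other scalings, filters, probe set rules, a replicate block and each array left out.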

Additional observations from a re-analysis of the deposited data

Results flagged for a closer look

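The change from 24 h to 72 h differed between Ota and control cells for the genes below, by the limma test of the difference (Ota change minus control change, log2 scale; adjusted p below the threshold). Among genes with the largest time changes or differences the values were KRT20 3.39, WDR76 3.06, UCA1 2.86, TIMM10B 1.35, LINC01963 -2.69, BCAT1 -2.43, TMEM45A -2.40, ADM5 -1.87, SLC16A14 -1.84 and GCNA -1.69. Replication genes had differences of POLA2 3.14, MCM10 2.79, UHRF1 2.35, GINS2 2.21, GINS1 1.39, RFC4 1.27, CDC6 1.23, ORC6 1.14, POLA1 1.01, PRIM1 0.70 and RPA1 0.42. Mitotic and G1 genes had MKI67 1.48, CDCA8 1.30, KIF20A 0.82, BIRC5 0.81, CDC20 0.75, E2F7 2.57, CCNE2 2.42, MYBL2 1.42 and CDK4 0.36, and the repair and histone genes BRIP1 2.18, H1-2 2.80, H1-10 0.88 and H2AC6 -2.40. In the ER stress and amino acid lists the differences were ERO1B -2.29, CRELD2 -2.07, HYOU1 -1.96, HSP90B1 -1.56, ERN1 -1.24, DNAJB9 -1.02, SEC24D -0.94, CALR -0.80, CANX -0.75, ALDH1L2 -3.15, ASNS -1.09, SARS1 -0.72, YARS1 -0.61 and TYMS 1.22. Lipid and mitochondrial genes had FASN 2.00, DHCR7 1.04, HMGCS1 1.02, SQLE 0.96, MVK 0.67, ACADVL -1.12, ECI1 0.42, ATP5MC1 0.64 and NDUFA9 0.37. Signalling, inflammatory and survival genes had PHLDA1 1.52, IER2 0.92, NFKBIA 1.10, TNFAIP8 1.40, IFI35 2.87, BTC -1.58, CCN1 1.12, ID2 0.93, BCL2L2 1.41, TP53I3 1.22, CRYAB 1.37 and NR1D2 -0.42. For the proteasome, zinc, matrix, injury, transport and marker genes the values were PSMB9 1.01, PSMD2 0.44, MT1M 0.73, SLC39A14 -0.86, MMP7 1.33, HAVCR1 1.58, PROM1 2.12, ABCC3 -0.90, SLC22A4 -1.54, SLCO2A1 1.35, SLC17A1 1.43, SCNN1A 0.62, ACTA2 -1.32 and EGFL7 0.66. The calls of ATP5MC1, CCN1, CDC6, CDK4, DNAJB9, ECI1, EGFL7, ERN1, HMGCS1, KIF20A, NDUFA9, NR1D2, PHLDA1, PRIM1, SCNN1A, SEC24D, SLC16A14, SLC17A1, SLC39A14, SQLE and TIMM10B were lost without at least 1 array, with adjusted p up to 0.107. Other settings ended calls too. With a common median those of ATP5MC1, CDC20, CDC6, CDK4, ECI1, EGFL7, NDUFA9, PSMD2, RPA1, SCNN1A and SQLE were lost (adjusted p up to 0.191), and with quantile normalization repeated those of ECI1, EGFL7 and NDUFA9. With no filter, where more genes were tested, those of ACADVL, ASNS, ATP5MC1, CCN1, CDC6, DNAJB9, EGFL7, ERN1, HMGCS1, PHLDA1, PROM1, SEC24D, SLC16A14, SLC17A1, SLC39A14, SQLE and TIMM10B were lost (up to 0.124). With probe sets averaged ABCC3, BCL2L2, ERN1, PHLDA1, RPA1, SARS1, SLC17A1 and SLC39A14 were not called (up to 0.244), nor were YARS1 (-0.22) and SCNN1A (0.016, adjusted p = 0.917). On probe sets specific to 1 transcript ABCC3, BIRC5, MVK and NR1D2 were not called (up to 0.33), nor YARS1 (0.17, adjusted p = 0.825). EGFL7 was uncalled with an intensity trend and SEC24D with the replicate block. Each group holds 3 arrays, so single arrays were not tested for standing apart.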

How the results depend on the processing

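The split of calls by direction depended on scaling: with a common median of the genes tested 2008 genes were lower in Ota cells and the difference was more negative for 1187. A 2-fold minimum left 499 higher and 129 lower genes, and probe sets specific to 1 transcript, with 7899 genes tested, left 1093 more positive differences. Leaving out 1 array at a time gave 1694 to 2524 higher and 725 to 1135 lower genes, and 1134 to 1799 more positive and 421 to 708 more negative differences. Signs turned for CANX (-0.014) and EGFR (-0.0019) with a common median, HMOX1 (-0.0071) with quantile normalization repeated, ACAA1 (0.0014) with probe sets averaged, and CALR (0.31), SQSTM1 (-0.086) and the difference of YARS1 (0.17) on specific probe sets. With 1 array left out the difference of DDIT3 ranged from -0.41 to 0.096 (without replicate 1 of Ota cells at 72 h), and that of TXNIP from -0.44 to 0.0088 (without replicate 2 of that group). Apart from the changed filter, probe sets or scaling themselves, the cause was not tested. For single genes, 2186 values kept direction and call when an array was left out, 199 lost and 3 gained a call. Under the other settings 1609 kept both, 99 lost and 3 gained a call.

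Same-numbered Ota arrays at 24 h and 72 h deviated together weakly, at r = 0.127, 0.0907 and 0.201, and control arrays at 0.246, 0.08 and 0.181, so the numbers were not taken to pair the times. Between Ota and control arrays the values were 0.439, 0.323 and 0.455 at 24 h and 0.11, 0.0674 and 0.268 at 72 h. Each of the 3 Ota arrays at 24 h matched its own number best, a hint from the data. With the number as a block 2692 genes were higher and 1290 lower, and the difference was more positive for 2010 and more negative for 821. With 3 arrays a group small changes are not resolved, and levels near the floor have no reliable fold.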
